A study of Sus scrofa with 9 samples.

Results

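The genes of the splicing machinery and of the proteins that coat nascent RNA were followed through heat and recovery in cultured pig immature Sertoli cells. The members were the protein-coding rows whose gene name starts with HNRNP, SNRP, SF3A, SF3B, U2AF, PRPF or LSM, which gave 55 of the 20681 genes in the deposited table. By name they divide into 15 hnRNP genes, 9 snRNP (SNRP) genes, 2 SF3A genes, 5 SF3B genes, 1 U2AF gene, 11 PRPF genes and 12 LSM genes. LSMEM1 and LSMEM2 entered by the letters of their names alone and encode membrane proteins, not Lsm proteins. Another 7 genes carry no name in the deposited table but are named by the RefSeq-based reference tables with the same prefixes (HNRNPA2B1, HNRNPUL2, SNRPB2, U2AF1, U2AF1L4, PRPF18 and LSM5). They are not members and are described separately. Genes such as SNRPB, SNRPD3, HNRNPC and LSM1 were not analysed here.

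Introns are removed from nuclear transcripts by the spliceosome, which is built anew on each intron from small nuclear ribonucleoproteins (snRNPs), each a short U RNA with its proteins. U1 marks the start of the intron, U2AF and the SF3A and SF3B proteins of U2 settle at its branch and end, and the U4/U6.U5 tri-snRNP with its PRPF proteins brings in the catalytic core. Sm proteins form the ring around U1, U2, U4 and U5, Lsm proteins form the ring on U6 and a cytoplasmic ring used in mRNA decay, and hnRNP proteins coat the transcript and steer which splice sites are used. Heat stress is a classical disturbance of splicing, and immature Sertoli cells are the dividing somatic cells of the fetal testis cords.

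All 9 libraries came from testicular immature Sertoli cells taken at 80 to 90 days of gestation and grown at 37 °C in medium with 10% serum under 5% CO2. The 3 control libraries were taken before heat. The 3 HS0.5 libraries were taken directly after 0.5 h at 43 °C, following 6 h of culture, and the 3 HS0.5-R36 libraries had 36 h of recovery at 37 °C after the same heat. No unheated library of the 36 h time was analysed here, so time in culture and recovery from heat cannot be told apart in the later comparisons. The labels do not name the replicates as separate cultures or animals, so each p-value covers no more than the scatter among these libraries, which may be technical.

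Levels are FPKM (fragments per kilobase of gene length, scaled by a library size) as deposited. Reads recovered from FPKM times length came to 18110565 to 21034021 per library. The library size implied by the FPKM was 0.902 to 0.973 times these recovered reads in control and HS0.5. In HS0.5-R36 it was 1.17 to 1.19 times, which lowers the deposited FPKM of that group relative to its reads. Only RNA was measured, so rises and falls of members are those of their mRNAs. Among Sertoli markers, SOX9 averaged 6.47 FPKM before heat, 8.17 at the end of heat and 1.24 after recovery, WT1 averaged 7.97, 9.83 and 3.78, and AMH averaged 22.3, 19.3 and 8.09. DMRT1 and INHA were listed at 0 in control and HS0.5. KITLG, DHH, NR5A1 and TF averaged at most 0.492 FPKM in any group. CLU averaged 3068, 2786 and 2950 FPKM in the same order of groups, and VIM 3958, 3931 and 1244. The 4 measured endothelial markers summed to at most 1.32 FPKM in any library, the 5 germ cell markers to at most 3.11, the 3 Leydig cell markers to at most 4.95, the 4 immune markers to at most 10.4 and the 6 peritubular myoid markers to at most 11.4. Control replicate 2 stood apart from the other controls. Its level, as log2(FPKM + 1), was above the mean of the other control libraries for 18 of the 21 tested members shorter than 3000 bp, with a median difference of 0.32. For the 33 longer members the median was 0.11, with 18 of them above 0, and over all 11479 genes tested it was 0.05.

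Levels of the members spanned a wide range in control. HNRNPA1, an hnRNP protein that shuttles between nucleus and cytoplasm and represses splice sites, was the highest at 546 ± 62.1 FPKM (mean ± SD, n = 3), and the hnRNP median was 98.2. The SNRP genes ran from 3.55 for SNRPN to 142 for SNRPE, with a median of 47.5, and the 11 PRPF genes had a median of 23.7. The LSM genes had a median of 11.8. LSMEM1 never reached 1 FPKM and was not tested, LSMEM2 reached it in 6 of 9 libraries, and the other 53 members reached it in all 9, which left 54 tested members.

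The members together held 1.05% ± 0.0052 of recovered reads before heat, 1.01% ± 0.015 at its end and 0.785% ± 0.0005 after 36 h (SD over 3 libraries). Most of the lower share lay in the hnRNP genes, at 0.609%, 0.575% and 0.403% of reads in the same order. The SNRP genes held 0.077%, 0.0668% and 0.0439%. By contrast, the SF3B genes held 0.11%, 0.112% and 0.113%, and the PRPF genes 0.148%, 0.164% and 0.144%. Shares of reads do not depend on the scaling of the deposited FPKM, but they weight long and highly expressed members.

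The first comparison sets HS0.5 against control and covers the exposure itself. One member rose and none fell. The one that rose was PRPF39, the counterpart of a yeast U1 snRNP protein that helps U1 engage the start of the intron. Its count of 1 in 54 stood against 3.62% of all tested genes that passed in either direction, 2.29% upwards and 1.32% downwards (limma, adjusted p under 0.05). The median difference over the members was -0.06 in log2(FPKM + 1), beside -0.01 over all genes tested. Before adjustment, 15 of the 54 members had p under 0.05, of which 10 were below and 5 above control. Over all genes this held for 3487 of 11479, so the members did not stand out. A fit to recovered reads with voom also called 1 member up and none down.

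PRPF39 was at 11.4, 9.66 and 11.9 FPKM in the control libraries and at 15.1, 17.1 and 18.3 in HS0.5. It stood at 22.9, 19.0 and 18.4 in HS0.5-R36. Every heated library thus lay above every control library, and all recovered libraries lay above the HS0.5 libraries. The difference was 0.58 ± 0.11 (log2, SE) between HS0.5 and control, with an adjusted p of 0.030, and 0.82 ± 0.11 between HS0.5-R36 and control, with an adjusted p of 0.00021. The rise at the end of heat passed in 9 of 19 alternatives, with losses when control replicate 1, any HS0.5 replicate or HS0.5-R36 replicate 2 or 3 was left out (adjusted p up to 0.136), whereas the rise at 36 h passed in all 19. Its difference from HS0.5 to HS0.5-R36, 0.24 ± 0.11, did not pass (adjusted p = 0.093). PRPF39 lies on chromosome 1 at 175285269 to 175317298 on the plus strand, and a snoRNA gene inside it, SNORD127, averaged 2.17 FPKM.

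Several other long PRPF genes had values above control at the end of heat without passing. PRPF8, the large scaffold protein at the centre of the spliceosome, was at 70.3, 49.7 and 71.2 FPKM in control and at 81.3, 81.7 and 84.3 in HS0.5. The HS0.5 values lay above all 3 controls, but 1 control lay well below the others, and the difference of 0.38 ± 0.14 did not pass (adjusted p = 0.12). PRPF4B, a kinase of the tri-snRNP, was at 19.1, 14.4 and 20.7 FPKM in control and 22.9, 23.0 and 24.7 in HS0.5, a difference of 0.38 ± 0.13 (adjusted p = 0.11). In both genes the low control was replicate 2, and without it the differences were 0.22 and 0.23.

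On the other side of 0, the lowest differences were mostly those of LSM and SNRP genes. Values below 0 were found in 8 of 15 hnRNP, 7 of 9 SNRP, 6 of 11 PRPF and 7 of 11 tested LSM genes. LSM7, a ring protein, was at 16.9, 27.3 and 18.6 FPKM in control and at 14.8, 12.0 and 10.0 in HS0.5, and its difference of -0.71 ± 0.26 did not pass (adjusted p = 0.13). The difference was -0.53 for LSM10, a protein of the U7 snRNP that processes histone mRNA, -0.52 for LSM8, -0.46 for SNRPG, -0.37 for LSM2 and -0.35 for HNRNPD, an AU-rich element binding protein also called AUF1, none of which passed. LSM10 overlaps the same-strand gene OSCP1 for 3742 bp, and the genes averaged 4.37 and 4.17 FPKM. How reads shared by LSM10 and OSCP1 were counted is unstated. LSM14B, a P-body and translation-control protein, came closest among the lower members, at -0.36 ± 0.10 (adjusted p = 0.071). Without control replicate 2 the LSM7 difference was -0.51, that of SNRPG -0.25 and that of LSM2 -0.20. Over the 54 members, 32 differences were below 0 with all libraries and 24 without that control, where the median was 0.03. Without that control PRPF39 still passed (adjusted p = 0.041) and HNRNPLL, a paralogue of HNRNPL known for regulating CD45 splicing in T cells, passed as lower.

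Length went along with these end-of-heat values. The 21 tested members shorter than 3000 bp had a median difference of -0.15, with 17 below 0, and the 33 longer ones a median of 0.00, with 15 below 0. The plot of differences against deposited gene length shows this beside the deviation of control replicate 2, which also went with length. With the length trend of each library removed, 34 of the 54 differences lay below 0, against 32 as deposited. With library weights, which gave control replicate 2 a weight of 0.0651, 23 lay below 0, and 11 members were called up and 14 down. The share of all genes called with these weights is not given here, so the weighted counts do not set the members apart. The HS0.5 libraries lay entirely below control for 12 members and entirely above for 7, against 20% and 20.5% of all genes tested.

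**Figure D1:**
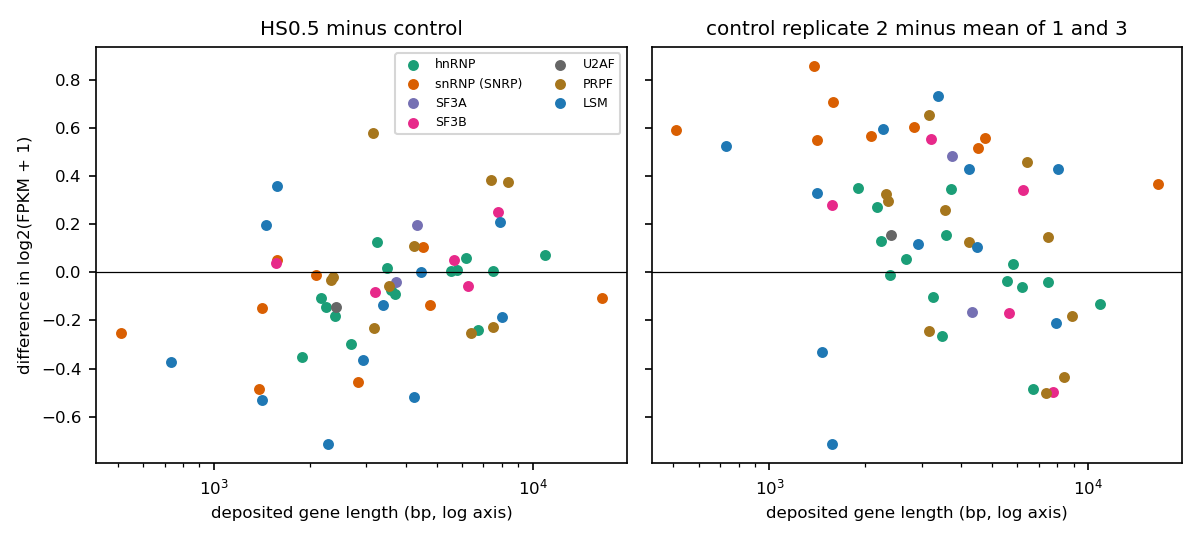
Each point is 1 of the 54 tested members, coloured by family, with deposited gene length in base pairs on a log axis and the difference in log2(FPKM + 1) on the vertical axis, for HS0.5 minus control (left) and for control replicate 2 minus the mean of control replicates 1 and 3 (right). Members shorter than 3000 bp had medians of -0.15 on the left and 0.32 on the right, and longer members 0.00 and 0.11.

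Setting HS0.5-R36 against control addresses the state well after the exposure. After 36 h of recovery, 43 of the 54 tested members fell and 3 rose, where 63.1% of all tested genes passed, 34.6% downwards and 28.5% upwards (limma, adjusted p under 0.05). The median member difference was -0.66 in log2(FPKM + 1), beside -0.06 over all genes tested. Of the members that fell, 15 had differences of -1 or lower. The 21 tested members shorter than 3000 bp had a median of -0.98 and the 33 longer ones a median of -0.55. The part of length in these values was not tested. The HS0.5-R36 libraries lay entirely below the controls for 42 members and entirely above for 3, against 36.4% and 30.5% of all genes. In bulk RNA, fewer cells of a type and less RNA per cell cannot be told apart.

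These counts depend on how libraries are scaled, because the deposited FPKM of the recovered libraries sum to 277289 to 284828, below the 336078 to 406079 of the controls. With every library rescaled to the same FPKM sum, the median of all genes moved from -0.06 to 0.23, and the share of upward calls among all genes called moved from 45.2% to 68.7%. The members then gave 29 lower and 6 higher calls and a median of -0.35. The shares of all genes called lower and higher after rescaling are not given here, so these counts cannot be set against them. Relative to the median of all genes, the member median was -0.60 as deposited, -0.58 after this rescaling, -0.63 with voom on recovered reads and -0.33 after quantile normalization. Of the 43 falls, 25 passed in all 19 alternatives.

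Several other measures moved with the recovered group. All 14 proliferation markers fell, with a summed level of 829 to 956 FPKM in the control libraries, 861 to 873 at the end of heat and 347 to 368 after recovery, and none of the 14 passed at the end of heat. Of 7 tested Sertoli markers, 6 also fell. Of 2 tested Leydig markers, CYP11A1 rose, from 0.121 to 1.95 FPKM, and of 2 tested immune markers CD68 rose, from 2.08 to 3.72 FPKM. The measured immune markers summed to 9.76 to 10.4 FPKM after recovery and 5.99 to 8.56 in the other libraries, and of 2 tested myoid markers DES fell, from 6.93 to 1.37 FPKM. Their part in the lower splicing genes was not tested.

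**Figure D2:**
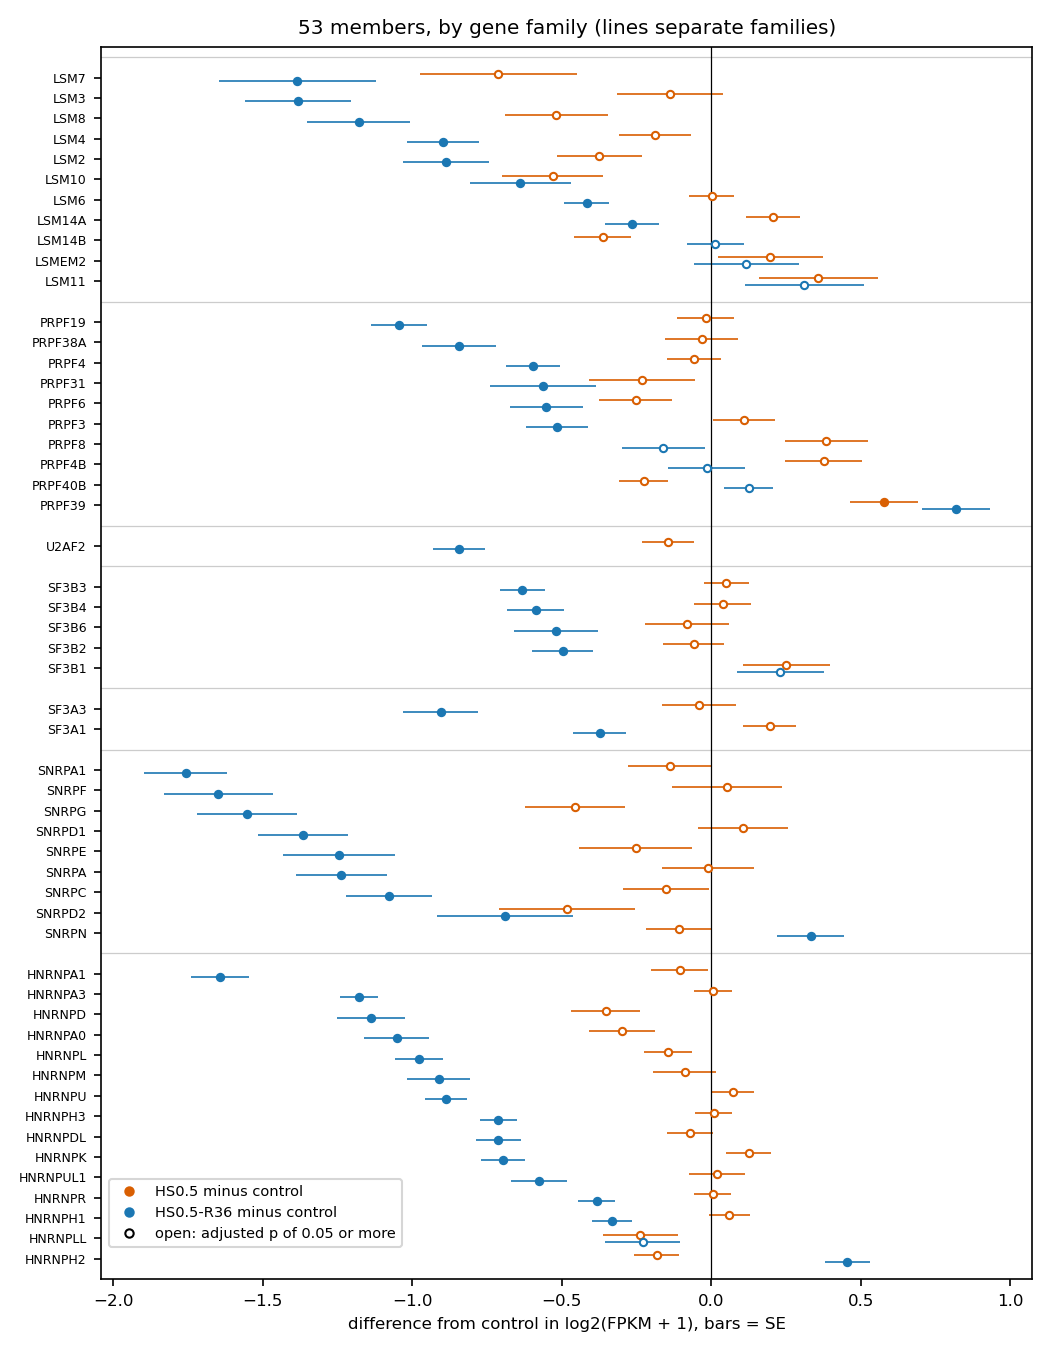
Difference from control in log2(FPKM + 1) for 53 of the 54 tested members, grouped by family, with bars of 1 SE from the limma fit (n = 3 libraries per group), for HS0.5 (orange) and HS0.5-R36 (blue). Filled points have an adjusted p under 0.05. PRPF39 is the only filled orange point, and blue filled points lie below 0 for 42 members and above 0 for HNRNPH2, SNRPN and PRPF39.

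Among the SNRP genes, 8 of 9 fell and 1 rose at 36 h. The family median was -1.25 and stayed between -1.38 and -0.81 in the alternatives. SNRPA1, a U2 protein that holds the U2 RNA with SNRPB2, was at 16.0, 24.2 and 16.3 FPKM in control and at 17.3, 17.1 and 15.8 in HS0.5. It was at 4.59, 4.77 and 4.92 in HS0.5-R36. The recovered libraries were close to one another and far below all others, with a difference of -1.76 ± 0.14 from control (adjusted p = 7.7e-06), the lowest value of any member.

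The Sm ring genes measured here, SNRPD1, SNRPD2, SNRPE, SNRPF and SNRPG, all fell. SNRPF was at 39.3, 64.4 and 38.8 FPKM in control, at 43.6, 45.2 and 55.7 in HS0.5 and at 14.6, 14.2 and 13.4 in HS0.5-R36, a difference of -1.65 ± 0.18 from control (adjusted p = 5.2e-05). SNRPG was at 31.6, 48.4 and 31.4 FPKM in control, at 25.9, 25.9 and 27.0 in HS0.5 and at 9.83, 12.7 and 12.9 in HS0.5-R36, a difference of -1.55 ± 0.17 (adjusted p = 4.1e-05). For SNRPF and SNRPG the recovered libraries did not overlap with either other group. The opposite-strand gene PCYOX1, at 12.7 FPKM on average, overlaps SNRPG for 4053 bp, and whether the counting used strand is unstated. SNRPE, the most highly expressed SNRP gene, was at 114, 183 and 128 FPKM in control, at 125, 122 and 103 in HS0.5 and at 47.0, 61.4 and 67.6 in HS0.5-R36. Its difference was -1.25 ± 0.19 (adjusted p = 0.00035), that of SNRPD1 was -1.36 and that of SNRPD2 was -0.69. SNRPD2 alone among the SNRP genes that fell lost its call in some alternatives, with an adjusted p of 0.091 when HS0.5-R36 replicate 1 was left out.

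The U1 genes SNRPA and SNRPC fell by 1.24 and 1.08 on the log2 scale. SNRPN went the other way. It encodes a paralogue of the Sm B proteins and is an imprinted gene with high expression in brain, in human and mouse. SNRPN was at 3.11, 4.35 and 3.18 FPKM in control and at 3.11, 2.97 and 3.51 in HS0.5. It was at 4.93, 4.64 and 4.48 in HS0.5-R36, just above every other library. The difference of 0.33 ± 0.11 passed (adjusted p = 0.026), though not when any of control replicates 1 and 3 or HS0.5-R36 replicates 1 and 2 was left out, where the adjusted p ranged from 0.062 to 0.093. It did not pass either with the length trend removed (0.26, adjusted p = 0.20), after quantile normalization (adjusted p = 0.11), without a filter or with only the 2 groups compared (adjusted p = 0.052 in both). Its row lies on an unplaced scaffold with a length of 16544 bp and is the 1 member that does not overlap the RefSeq gene of its symbol. Its FPKM was low beside the other SNRP genes at all times, but FPKM divides by this long deposited length. In recovered reads over the 3 HS0.5-R36 libraries, SNRPN held 5364, above the 3480 of SNRPA, the next SNRP gene. Its level relative to the Sm genes is thus not settled. Sm B, the product of SNRPB, could not be set beside SNRPN.

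Of the 15 hnRNP genes, 13 fell, 1 rose and 1 did not pass at 36 h, with a family median of -0.71. HNRNPA1 was at 502, 617 and 520 FPKM in control, at 507, 500 and 509 in HS0.5 and at 170, 175 and 176 in HS0.5-R36. The HS0.5 libraries were close to control replicates 1 and 3, and every recovered library was far lower, with a difference from control of -1.64 ± 0.10 (adjusted p = 1.4e-06), a ratio of mean FPKM of 3.15. HNRNPA1 lies on chromosome 5 at 19485096 to 19491419 on the plus strand. Its close relative HNRNPA3 was at 109, 107 and 110 FPKM in control, at 110, 108 and 109 in HS0.5 and at 47.8, 47.5 and 47.2 in HS0.5-R36, a difference of -1.18 ± 0.06 (adjusted p = 9.8e-07). Both fell, but not equally: the ratio of HNRNPA1 to HNRNPA3 within a library, which no scaling alters, averaged 5.01 before heat, 4.63 after it and 3.66 after recovery, and the recovered libraries lay below all others. A length trend can alter such a ratio, and the deposited lengths are 2167 and 5549 bp.

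Large falls were also measured for HNRNPD, at -1.14, and for HNRNPA0, an AU-rich element binding protein, at -1.05. HNRNPL, which binds CA repeats, fell by 0.98, HNRNPM by 0.91 and HNRNPU, the nuclear scaffold protein, by 0.89 on the log2 scale. HNRNPK, which binds C-rich RNA, was at 255, 235 and 251 FPKM in control, at 269, 268 and 271 in HS0.5 and at 148, 153 and 154 in HS0.5-R36, a difference of -0.70 ± 0.07. HNRNPH3 and HNRNPDL each fell by 0.71, HNRNPUL1 by 0.58, HNRNPR by 0.38 and HNRNPH1 by 0.33. Of the 13 hnRNP falls, 8 passed in all 19 alternatives. Those of HNRNPK (-0.10) and HNRNPDL (-0.11) did not pass after quantile normalization, and those of HNRNPR and HNRNPUL1 did not pass after it or after rescaling. The values of HNRNPH1 changed sign after rescaling to the same sum and after quantile normalization, and that of HNRNPUL1 after quantile normalization. HNRNPL overlaps 5 other genes, among them ACTN4 on the opposite strand at 75.6 FPKM.

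HNRNPH2 was the hnRNP gene that rose. It encodes a G-tract binding protein very similar to that of HNRNPH1. HNRNPH2 was at 19.2, 18.4 and 17.9 FPKM in control and at 15.3, 17.3 and 16.0 in HS0.5. It was at 24.4, 26.3 and 26.4 in HS0.5-R36. The groups did not overlap in either comparison: the HS0.5 libraries were the lowest, by -0.18 ± 0.07 from control, which did not pass (adjusted p = 0.14), and the recovered libraries were the highest, by 0.45 ± 0.07 from control (adjusted p = 0.00058) and 0.64 ± 0.07 from HS0.5 (adjusted p = 6.5e-05). Its rise passed in all 19 alternatives of both later comparisons. HNRNPH1 was at 67.1, 62.7 and 63.7 FPKM in control, at 66.2, 66.2 and 69.3 in HS0.5 and at 50.7, 50.05 and 52.3 in HS0.5-R36. The ratio of HNRNPH1 to HNRNPH2 within a library averaged 3.49 before heat, 4.16 after it and 1.99 after recovery, with no overlap between the 3 groups. HNRNPH2 lies on the X chromosome at 83031791 to 83037871, where the opposite-strand gene GLA, at 7.27 FPKM, overlaps it for 494 bp, and RUFY1, at 22.2 FPKM, overlaps HNRNPH1 for 10377 bp. The sources used here do not state how reads shared by near-identical copies were counted.

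**Figure D3:**
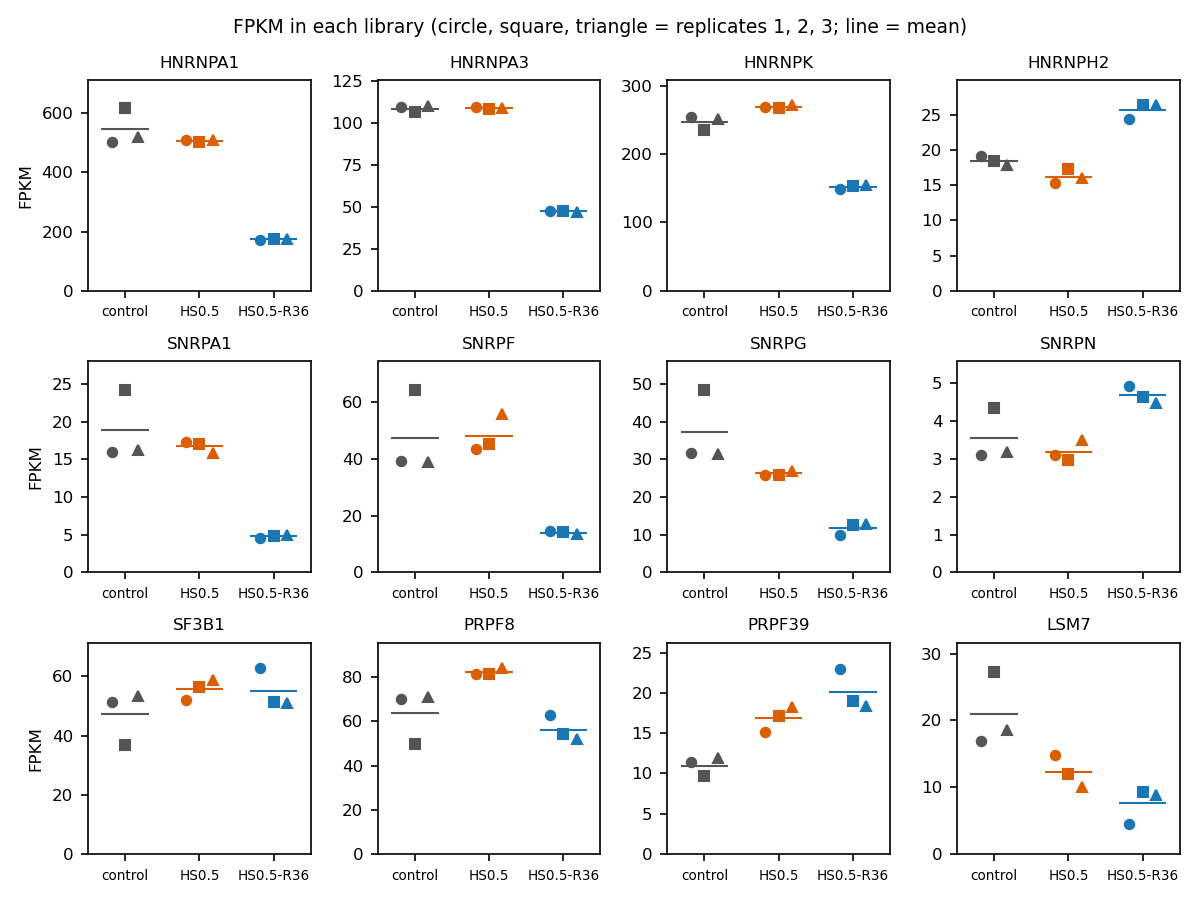
FPKM in each of the 9 libraries for 12 members, with 1 panel per gene, a vertical axis from 0, symbols for replicates 1 to 3 and a line at the group mean. HNRNPA1, HNRNPA3, HNRNPK, SNRPA1, SNRPF and SNRPG were lower in all HS0.5-R36 libraries than in all others, whereas HNRNPH2 and SNRPN were higher, PRPF39 was above control in both heated groups, and control replicate 2 (square) stands off in SNRPA1, SNRPF, SNRPG, LSM7, SF3B1 and PRPF8.

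Genes of the proteins that recognise the branch site and the intron end mostly fell too. U2AF2, the large subunit that binds the polypyrimidine tract, was at 119, 128 and 112 FPKM in control, at 115, 108 and 101 in HS0.5 and at 63.1, 67.5 and 68.0 in HS0.5-R36. It fell by 0.84 ± 0.09 from control (adjusted p = 3.1e-05), without overlap. SF3A3 fell by 0.91 and SF3A1 by 0.37. The SF3A1 fall did not pass after rescaling, after quantile normalization (-0.02) or with voom. SF3A1 was at 31.8, 28.0 and 31.2 FPKM in control, at 33.1, 34.7 and 36.6 in HS0.5 and at 25.7, 22.1 and 21.9 in HS0.5-R36.

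Within SF3B, 4 of 5 genes fell and the largest subunit did not. SF3B4, the highest of them in control, was at 76.2, 92.6 and 76.3 FPKM in control, at 83.5, 85.0 and 82.2 in HS0.5 and at 56.5, 55.4 and 49.8 in HS0.5-R36, a difference of -0.59 ± 0.10 (adjusted p = 0.00054). The differences were -0.63 for SF3B3, -0.52 for SF3B6 and -0.50 for SF3B2. Each of these 4 calls was lost in at least 1 alternative, and after quantile normalization 1 gene was lower and the family median was -0.02. SF3B1, which holds the branch-site adenosine and is the target of splicing inhibitors, was at 51.3, 36.8 and 53.6 FPKM in control, at 52.1, 56.3 and 58.8 in HS0.5 and at 62.9, 51.4 and 51.1 in HS0.5-R36. The groups overlapped, and the difference of 0.23 ± 0.15 did not pass (adjusted p = 0.19), but it passed as higher after rescaling, after quantile normalization and with voom. The log2 ratio of SF3B1 to SF3B4 within a library averaged -0.80 ± 0.46 before heat, -0.59 ± 0.10 after it and 0.03 ± 0.13 after recovery (SD, n = 3), and every recovered library lay above every other. Their deposited lengths are 7766 and 1567 bp, and the part of length in this ratio was not tested.

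Of the 11 PRPF genes, 7 fell, 1 rose and 3 did not pass at 36 h. PRPF19, the ubiquitin ligase that names the PRP19 complex, was at 85.6, 106 and 85.9 FPKM in control, at 91.8, 89.3 and 90.9 in HS0.5 and at 42.2, 44.0 and 46.1 in HS0.5-R36, a difference of -1.04 ± 0.09 (adjusted p = 1.5e-05). PRPF38A and the tri-snRNP genes PRPF4, PRPF31, PRPF6 and PRPF3 fell by 0.84, 0.60, 0.56, 0.55 and 0.52 on the log2 scale. PRPF19, PRPF38A and PRPF4 passed in all 19 alternatives, and the other 4 falls did not. Leaving out HS0.5-R36 replicate 1 ended the PRPF31 call (adjusted p = 0.073).

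PRPF8 was at 62.9, 54.2 and 51.9 FPKM in HS0.5-R36, inside the control range, with a difference of -0.16 ± 0.14 from control (adjusted p = 0.33). Without control replicate 2 it was -0.33 and passed (adjusted p = 0.0059). PRPF4B was at 19.9, 16.6 and 16.8 FPKM, with a difference of -0.02 ± 0.13. After rescaling to the same sum, after quantile normalization and with voom the values of both genes lay above 0 without passing. The ratio of PRPF8 to PRPF4B averaged 3.52 before heat, 3.51 after it and 3.17 after recovery. PRPF40B differed by 0.13 and did not pass, but it passed as higher after rescaling, at 0.42 (adjusted p = 0.0027), with voom, at 0.35 (adjusted p = 0.0099), and with library weights, at 0.20 (adjusted p = 0.013).

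Among the LSM genes, 8 of 11 tested fell, with a family median of -0.64. LSM2, the highest of them, was at 68.8, 99.4 and 68.9 FPKM in control, at 65.4, 58.9 and 55.7 in HS0.5 and at 38.7, 44.8 and 41.6 in HS0.5-R36, a difference of -0.89 ± 0.14 (adjusted p = 0.00053). LSM3 was at 13.9, 23.5 and 13.6 FPKM in control, at 14.3, 14.6 and 15.8 in HS0.5 and at 5.45, 5.61 and 6.09 in HS0.5-R36, a difference of -1.38 ± 0.18 (adjusted p = 0.00012). LSM7 was at 4.46, 9.34 and 8.90 FPKM in HS0.5-R36, a difference of -1.38 ± 0.26 from control (adjusted p = 0.0014). Its recovered libraries spread more widely than those of LSM3, and the opposite-strand gene SPPL2B, at 10.7 FPKM, overlaps LSM7 for 5357 bp.

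LSM8, which sets the nuclear U6 ring apart from the cytoplasmic one, was at 6.81, 9.46 and 6.72 FPKM in control, at 4.68, 5.24 and 5.06 in HS0.5 and at 1.93, 3.10 and 3.52 in HS0.5-R36. The 3 groups did not overlap, and the recovered level was lower by -1.18 ± 0.17 (adjusted p = 0.00028). LSM4 fell by 0.90 and LSM6 by 0.42, the latter without passing after rescaling. Counting LSM5 from the genes named only by the reference, all 7 genes of the nuclear ring fell from control to 36 h. Their differences ran from -1.38 to -0.42.

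LSM14A and LSM14B, related proteins of P-bodies, followed different courses. LSM14A was at 19.5, 16.9 and 20.0 FPKM in control, at 21.5, 21.4 and 22.6 in HS0.5 and at 16.7, 14.0 and 15.7 in HS0.5-R36. LSM14B was at 18.1, 19.4 and 17.5 FPKM in control, at 15.6, 13.3 and 13.3 in HS0.5 and at 16.5, 19.7 and 19.3 in HS0.5-R36. LSM14A was thus highest at the end of heat, when LSM14B was lowest. The log2 ratio of LSM14A to LSM14B averaged 0.04 ± 0.20 before heat, 0.64 ± 0.16 after it and -0.26 ± 0.26 after recovery (SD, n = 3), and every HS0.5 library lay above every other. Against control at 36 h, LSM14A fell by 0.27 (adjusted p = 0.028), a call lost when any of control replicates 1 and 3 or HS0.5-R36 replicates 2 and 3 was left out and a value that changed sign after rescaling, and LSM14B differed by 0.01 and did not pass. LSM14B passed as higher than control after rescaling, at 0.34 (adjusted p = 0.020), and after quantile normalization, at 0.27 (adjusted p = 0.029). The U7 genes also parted. LSM10, whose row overlaps OSCP1 on the same strand, fell by 0.64, a call lost after rescaling. LSM11, at 3.95 FPKM in control and 5.04 in HS0.5-R36, differed by 0.31 and did not pass.

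The comparison of HS0.5-R36 with HS0.5 covers the recovery interval. It shares its recovered libraries with the preceding comparison, so the values stand side by side and do not add evidence. Here 41 of 54 members fell and 4 rose, where 63.8% of all tested genes passed, 35% downwards and 28.8% upwards, and 25 of the 41 falls passed in all 19 alternatives. The recovered libraries lay entirely below HS0.5 for 43 members and entirely above for 5, against 41.6% and 33.6% of all genes. The members that rose were HNRNPH2 at 0.64, SNRPN at 0.44, LSM14B at 0.38 ± 0.10 (adjusted p = 0.0071) and PRPF40B at 0.35 ± 0.08 (adjusted p = 0.0043). Each of these rises passed in every alternative that tested the gene. PRPF8 fell by 0.55 ± 0.14 (adjusted p = 0.0069) and PRPF4B by 0.39 ± 0.13 (adjusted p = 0.024) in this interval, though PRPF8 did not pass after rescaling, after quantile normalization or with voom. The PRPF4B call was also lost when HS0.5 replicate 2 or 3 or HS0.5-R36 replicate 2 or 3 was left out (adjusted p of 0.053 to 0.081).

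By course, 39 members were not called at the end of heat and fell in both later comparisons. The 4 members LSM10, PRPF31, PRPF6 and SNRPD2 fell from control to 36 h without passing in the recovery interval. In HNRNPLL, LSM11, LSMEM2 and SF3B1 no comparison passed, though without control replicate 2 HNRNPLL passed as lower at 36 h, by -0.39 (adjusted p = 0.00042).

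**Figure D4:**
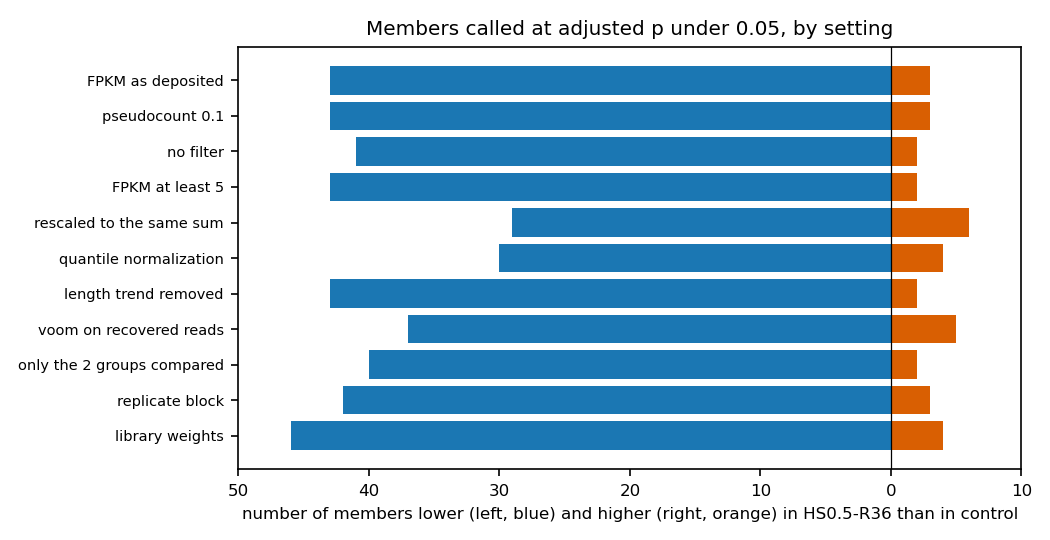
Number of the 54 tested members called lower (left, blue) and higher (right, orange) in HS0.5-R36 than in control at an adjusted p under 0.05, for the deposited FPKM and 10 other settings. Lower calls ran from 29 after rescaling to the same sum to 46 with library weights, and higher calls from 2 to 6. The shares of all genes called lower and higher are given only for the deposited FPKM.

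The genes with the same prefixes that only the reference names were counted separately. None of the 7 passed at the end of heat (limma, with 2 at an unadjusted p under 0.05), and 5 fell from control to 36 h. U2AF1, the small subunit of U2AF that reads the AG at the intron end, fell by 1.13, LSM5 by 1.10, HNRNPA2B1 by 0.90, SNRPB2 by 0.55 and HNRNPUL2 by 0.31, the last with a sign that changed after rescaling and after quantile normalization and a call lost without HS0.5-R36 replicate 1 (adjusted p = 0.069). The SNRPB2 fall did not pass after rescaling, after quantile normalization or with voom. U2AF1 was at 117, 187 and 110 FPKM in control, at 119, 114 and 108 in HS0.5 and at 57.8, 61.8 and 62.5 in HS0.5-R36. The log2 ratio of U2AF1 to U2AF2 was -0.03, 0.54 and -0.03 in the control libraries, averaged 0.07 ± 0.03 at the end of heat and was -0.13, -0.13 and -0.12 after recovery (SD, n = 3). Control replicate 2 thus set the sign of the control mean.

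Partners outside the name list were read from lists of the same pathway, against 34.6% of all tested genes called lower and 28.5% called higher at 36 h. Of 30 tested genes of snRNP-specific and tri-snRNP proteins, 23 fell and 2 rose at 36 h. Among them were PHF5A, for the small SF3B subunit, at -1.28 and LUC7L3, for a U1-associated protein, at 0.56. Of 19 genes of the SMN complex and snRNP assembly, whose proteins load the Sm ring onto U RNAs, 17 fell and none rose. WDR77 was at -1.12 and GEMIN5, whose protein recognises the U RNA, at -1.03. Of 10 exon junction complex genes, 7 fell and 1 rose, with MAGOHB at -2.05 and RBM8A at -1.21.

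Of 32 tested genes of the PRP19 complex and the catalytic steps, 16 fell and 2 rose, with a median of -0.23. The rises were SLU7 at 0.41 and PPIL4 at 0.40. Of 32 genes of other hnRNP-like RNA-binding proteins, 24 fell and none rose. PTBP1, whose protein represses exons through pyrimidine tracts, was at -1.11. Of 8 genes of U7 and histone mRNA 3′ ends, 6 fell and 1 rose, with the histone stem-loop binding protein SLBP at -0.83 and ZNF473 at 0.65. Among decapping partners of the cytoplasmic LSM ring, 1 of 7 fell and 2 rose, DCP1B at 0.83 and the exonuclease XRN1 at 0.74, shares of 14.3% and 28.6%, the second close to that of all genes.

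At the end of heat, 5 of 138 tested genes of these lists rose and none fell, a share of 3.62% upwards where 2.29% of all tested genes passed upwards. Among them were PDCD7, a protein of the minor spliceosome, at 0.84 ± 0.09 (adjusted p = 0.0020), TGS1, which makes the trimethyl cap of U RNAs, at 0.66, CELF1 at 0.62 and FUBP1 at 0.33. Each of these named genes then fell from HS0.5 to HS0.5-R36. The count of upward calls in these lists at the end of heat was 1 to 7 when single libraries were left out.

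The U RNAs themselves could not be followed. The table lists 204 snRNA rows, 158 of them U6, which together held 510 recovered reads in the control libraries, 581 at the end of heat and 732 after recovery, each over 3 libraries. The U1 rows held 7, 9 and 8 reads. Levels of the proteins' mRNAs therefore stand without those of their RNA partners.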

How the data were processed

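The submitters' processing notes name bcl2fastq and the aligner HISAT2 2.0.5. The authors deposited FPKM per gene with gene lengths, per the file headers. Neither the genome build nor the use of strand is stated in the sources used here. Of 55 members, 54 overlapped the RefSeq gene of that symbol in Sscrofa11.1, and positions are printed as deposited. FPKM times length gave whole reads for 100% of values (tolerance 1e-06). The deposited FPKM imply library sizes of 0.902 to 0.973 times the recovered reads in control and HS0.5 and 1.17 to 1.19 times in HS0.5-R36, a scaling by the authors that the sources do not describe.

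Genes with FPKM of at least 1 in at least 3 of 9 libraries (11479) were fitted as log2(FPKM + 1) with limma 3.58.1 in R 4.3.3 (moderation along the trend, all 9 libraries), with two-sided p adjusted by Benjamini-Hochberg over all genes and a threshold of 0.05. The added 1 understates changes of low genes. The fit was tested on simulated data. Ratios of 2 genes are of deposited FPKM within a library, and ratios over groups are geometric means. The 19 alternatives covered the pseudocount (0.1), the filter (none, or FPKM of at least 5), rescaling to the same sum, quantile normalization, removal of each library's length trend (lowess, span 0.3), voom on recovered reads, only the groups compared, replicate numbers as blocks, library weights and each library left out. Same-numbered libraries correlated from -0.429 to 0.265 after group means were removed, so numbers were not used as pairs.

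Values per library are given for members called at the end of heat, the 6 largest rises and falls called at 36 h against control, the highest member of each family and set paralogue pairs. HNRNPK, LSM8 and other members named beyond this were chosen after their values were seen. Members and lists were chosen with earlier results of these data known. Promoter and protein sequences were not used here. A few genes that enter the counts are not reported here by name.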

Additional observations from a re-analysis of the deposited data

How the results depend on the processing

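Log2 differences and adjusted p-values are limma's with Benjamini-Hochberg adjustment, and the cause of a changed call was not tested unless stated. Counts under an alternative stand without the shares of all genes called lower and higher in it. At the end of heat, the 1 upward member call became 0 without a filter, after rescaling to the same sum, with only the 2 groups compared and with the replicate block, where same numbers do not pair libraries. Library weights, which gave control replicate 2 a weight of 0.0651, called 11 members up and 14 down with a median of 0.0139. In the other splicing lists they called 52 up and 23 down. These weighted counts stand without the share of all genes called. The 5 upward calls in those lists became 3 with a pseudocount of 0.1, 2 without a filter, 2 after rescaling and 1 with only the 2 groups compared, and the downward calls became 1 after quantile normalization, with the length trend removed and with voom. With single libraries left out, members gave 0 to 1 calls up and 0 to 1 down with medians from -0.117 to 0.0271, and the lists 1 to 7 up and 0 to 2 down.

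From control to 36 h, upward member calls were 6 after rescaling and 5 with voom, and the median was -0.35 after rescaling, -0.32 after quantile normalization, -0.578 with the length trend removed and -0.511 with voom. The other lists went from 8 up and 94 down to 19 up and 51 down after rescaling. Leaving out single libraries gave 41 to 45 members down, 2 to 3 up and medians from -0.705 to -0.623, and 5 to 9 up and 83 to 101 down in the lists. From HS0.5 to 36 h, the median was -0.311 after rescaling, -0.3 after quantile normalization and -0.451 with voom. Upward calls in the lists, 5 as deposited, were 3 at an FPKM of at least 5, 16 after rescaling, 8 after quantile normalization, 12 with voom and 10 with library weights, and downward calls went from 97 to 51 after rescaling. Single libraries left out gave 39 to 43 members down, 4 to 5 up and medians from -0.639 to -0.626, and 3 to 7 up and 91 to 108 down in the lists.

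Some signs changed, among them those of the called falls of HNRNPH1, HNRNPUL1, HNRNPUL2 and LSM14A. Against control at 36 h, rescaling gave 0.0107 for HNRNPH1, 0.0713 for HNRNPLL, 0.0255 for HNRNPUL2, 0.0619 for LSM14A, 0.314 for PRPF4B and 0.181 for PRPF8. Quantile normalization gave 0.203 for HNRNPH1, 0.0026 for HNRNPUL1, 0.0668 for HNRNPUL2, 0.213 for PRPF4B and 0.378 for PRPF8, and voom gave 0.181 for PRPF4B and 0.0301 for PRPF8. PRPF4B was -0.16 without control replicate 2, the lowest with a single library left out, 0.0304 without control replicate 1, 0.0843 without control replicate 3, 0.0284 without HS0.5-R36 replicate 2 and 0.0203 without HS0.5-R36 replicate 3. LSM14B was 0.0893 without HS0.5-R36 replicate 1, the highest of its kind, -0.0185 without control replicate 3, -0.0321 without HS0.5-R36 replicate 2 and -0.0177 without HS0.5-R36 replicate 3. From HS0.5 to 36 h, HNRNPH1 was 0.0865 after quantile normalization and PRPF6 0.0275 after rescaling. The replicate block changed no other member call by over 1.5 times, with 42 members down and 3 up from control to 36 h. Few recovered reads limit LSMEM1, LSMEM2 and the U RNAs, for a reason that was not tested, and 3 libraries per group limit the end-of-heat comparison.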
